A study of Mus musculus with 170 samples.

Results

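Chamber-identity factors, 8 in number, were followed in single cells of the E9.5 mouse heart ventricle, namely the bHLH factors Hand1 and Hand2, the Iroquois homeobox factors Irx3, Irx4 and Irx5, the Hairy-related repressors Hey1 and Hey2, and the orphan nuclear receptor Nr2f2. They are 8 of the 40549 gene rows of the table. The genes were chosen by their names, with the fall of Hand1 in earlier results from these same cells in view, so their differences between genotypes are descriptions and support nothing beyond themselves. Control hearts, labelled wild type, were Dgcr8 loxP/loxP with 1 Rosa26 mT/mG reporter allele and no Cre. The conditional knockout (cKO) hearts were Mesp1Cre/+ Dgcr8 loxP/loxP with the same reporter. Both were on a C57BL/6 background and both carried floxed Dgcr8. Cre from the Mesp1 locus acts in early mesoderm, including the progenitors of heart muscle and of the heart's vessels, so deletion was not limited to cardiomyocytes (CMs). Dgcr8 encodes a subunit of the microprocessor, which releases microRNA hairpins from their primary transcripts.

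Hand1 and Hand2 bind E-boxes as dimers with other bHLH proteins. In the looped heart Hand1 marks the outer curvature of the left ventricle, whereas Hand2 is used more widely, in the right ventricle, outflow tract, endocardium and epicardium. Irx4 is a ventricle-restricted factor and Irx3 and Irx5 act in the conduction system and endocardium. Hey1 and Hey2 are nuclear effectors of Notch signalling that divide the chambers from the atrioventricular canal, with Hey2 in ventricular and Hey1 in atrial muscle. Nr2f2 (COUP-TFII) is an atrial identity factor in myocardium and is also active in venous endothelium and epicardium. Loss of Nr2f2 from atrial muscle is known to bring on ventricular genes, among them Irx4 and Hey2.

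Start-site sequences are given for 3 of these genes, since Irx4 and Hey2 varied together in cKO cells and Nr2f2 ran opposite to them. The stretches come from RefSeq (GRCm38.p6), which matched 5 of the 8 genes (Hand2, Irx3, Irx4, Hey2 and Nr2f2) in the table used here. Each runs 5′ to 3′ on the gene's own strand, from 250 bases before the start site to 50 after it. Irx4 is on chromosome 13, plus strand (chr13:73260247-73260546), Hey2 on chromosome 10, minus strand (chr10:30842734-30843033), and Nr2f2 on chromosome 7, minus strand (chr7:70366697-70366996). Capitals mark matches, on either strand, of the E-box letters CANNTG that bHLH proteins recognise, of TGGGAA, the core letters of the Notch effector RBPJ, and of AGGTCA, the nuclear-receptor half-site to which COUP-TF proteins bind.
Irx4: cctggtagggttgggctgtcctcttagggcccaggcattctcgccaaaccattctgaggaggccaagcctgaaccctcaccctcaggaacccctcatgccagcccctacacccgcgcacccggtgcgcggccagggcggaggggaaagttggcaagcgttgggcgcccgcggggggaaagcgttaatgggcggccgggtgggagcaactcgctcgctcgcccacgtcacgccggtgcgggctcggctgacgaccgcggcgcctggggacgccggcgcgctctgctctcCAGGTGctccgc
Hey2: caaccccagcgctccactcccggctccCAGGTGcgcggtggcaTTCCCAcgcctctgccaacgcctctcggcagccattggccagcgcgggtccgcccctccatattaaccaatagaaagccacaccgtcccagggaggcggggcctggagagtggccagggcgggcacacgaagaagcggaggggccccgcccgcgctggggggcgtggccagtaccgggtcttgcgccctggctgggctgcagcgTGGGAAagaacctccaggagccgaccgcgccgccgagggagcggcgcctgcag
Nr2f2: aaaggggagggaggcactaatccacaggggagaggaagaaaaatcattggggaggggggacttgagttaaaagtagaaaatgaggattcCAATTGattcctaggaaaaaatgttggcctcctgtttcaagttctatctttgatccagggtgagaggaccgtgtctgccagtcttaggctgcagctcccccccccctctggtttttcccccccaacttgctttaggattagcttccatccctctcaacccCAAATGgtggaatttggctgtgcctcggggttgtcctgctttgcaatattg
With the start site as position 0, the Irx4 stretch held 1 E-box, at position 38. The Hey2 stretch held 1 E-box at position -223 and 2 RBPJ matches, at positions -207 and -3. Nr2f2 held 2 E-boxes, at positions -161 and -1. Hand2 held 2 E-boxes and 1 RBPJ match, and Irx3 held 1 RBPJ match. AGGTCA and the Hey-preferred E-box CACGTG (a subset of CANNTG) were in none of the 5 stretches. Of 32851 mouse promoters of this length, 72.3% held CANNTG, 25.6% held TGGGAA, 16.3% held AGGTCA and 7.15% held CACGTG. A match is only a match of letters.

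The table held 74 control and 69 cKO cells, in 2 sequencing batches of 35 and 39 control and 35 and 34 cKO cells. Because the labels name no embryo or litter, each genotype is 1 sample, cells are not replicates, and no test between genotypes was made. Clustering on 55 marker genes gave 90 CM-like cells, in which all 15 CM markers stood out, of which 25 were control (17 and 8 by batch) and 65 cKO (32 and 33). The endothelial-like (22), epicardial-like (13) and erythroid-like (5) cells were all control, and 13 cells, most of them with much mitochondrial RNA, stayed unnamed. The values are TPM, which keep no read depth, and the CM-like cells had 3805 to 11468 genes above 0 in controls and 4468 to 11044 in cKO. The median was 8496 in control and 9877 in cKO cells in batch 1, but 9704 and 7786 in batch 2. The part of this reversal in the differences by batch was not tested. The targeted gene was a weak check of the labels: 13 of 25 control and 21 of 65 cKO CM-like cells held Dgcr8 at a TPM of at least 1, and its mean log2(TPM + 1) differed by -0.85 (-0.36 and -1.03 by batch), and TPM does not tell whether its deleted exons were read. Genotype also ran with sex-linked transcripts, since 62 of 65 cKO but 0 of 25 control CM-like cells held Xist, and 0 and 17 held Ddx3y, so sex and genotype cannot be told apart here. Markers of other cells were uneven. In batch 2, 7 of 8 control CM-like cells had a mean marker z-score above 0 for some other class, mostly epicardial or erythroid (4 cells each), against 2 of 17 in batch 1, 13 of 32 batch 1 cKO cells and 20 of 33 batch 2 cKO cells. The endothelial z-score was below 0 in all 90 cells.

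Hand1 was the member that differed most. A cell was counted as detecting a gene at a TPM of at least 1, and levels are mean log2(TPM + 1) ± SD over cells. In 17 batch 1 control CM-like cells Hand1 ran from 0.27 through a median of 3.32 to 8.71, and in 8 batch 2 control cells from 0 through 6.77 to 8.74. In 32 batch 1 cKO cells it ran from 0 through 0.37 to 7.30, and in 33 batch 2 cKO cells from 0 through 0 to 7.70. Most cKO cells were thus at or near 0, while a few were as high as many control cells. No cKO cell exceeded the highest control cell. The mean was 4.74 ± 3.42 in control cells (n = 25) and 1.02 ± 2.09 in cKO cells (n = 65), a difference of -3.71 log2 units pooled, -2.47 in batch 1 and -5.79 in batch 2.

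Detection carried much of this difference. Hand1 was detected in 17 of 25 control cells (68%, exact 95% interval 46.5 to 85.1%) and in 10 of 65 cKO cells (15.4%, 7.63 to 26.5%). In batch 2 the counts were 7 of 8 and 3 of 33. Intervals on shares of cells are Clopper-Pearson and cover counting error only. Among detecting cells the mean was 6.76 ± 1.99 in 17 control cells and 5.53 ± 1.97 in 10 cKO cells, so the detecting cells of the genotypes overlapped widely. Control cells were not uniform either, as 7 of 17 in batch 1 were below detection.

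Hand2, the paralog of Hand1, did not share this pattern. It ran from 0 through a median of 2.39 to 4.90 in control CM-like cells and from 0 through 2.10 to 7.55 in cKO cells, with 6 cKO cells above the highest control cell. The means were 2.34 ± 1.60 and 2.09 ± 2.11, a difference of -0.24 log2 units (-0.28 and -0.21 by batch), which is small beside the scatter over cells. Hand2 was detected in 18 of 25 control cells (72%, 50.6 to 87.9%) and 35 of 65 cKO cells (53.8%, 41 to 66.3%). Fewer cKO cells detected it, but those that did held more: 3.77 ± 1.46 against 3.15 ± 1.07. The ratio of mean TPM was 1.71 in favour of cKO, opposite in sign to the mean log2 level, but few cells carried it. Without the cKO cell highest in Hand2 (TPM 186, 4468 detected genes) it was 1.34, and without the highest 2 it was 1.12, while all genes on that scale were shifted by a median of 0.17 log2 units. The 2 Hand genes were found together in 14 of 25 control cells, and 3 more had Hand1 alone and 4 Hand2 alone. In cKO cells, 6 of 65 had both, 4 had Hand1 alone and 29 had Hand2 alone. An antisense transcript overlapping Hand2, Hand2os1, had no row of its own, and these libraries do not separate the strands. Its part in the Hand2 values was not tested.

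**Figure D1:**
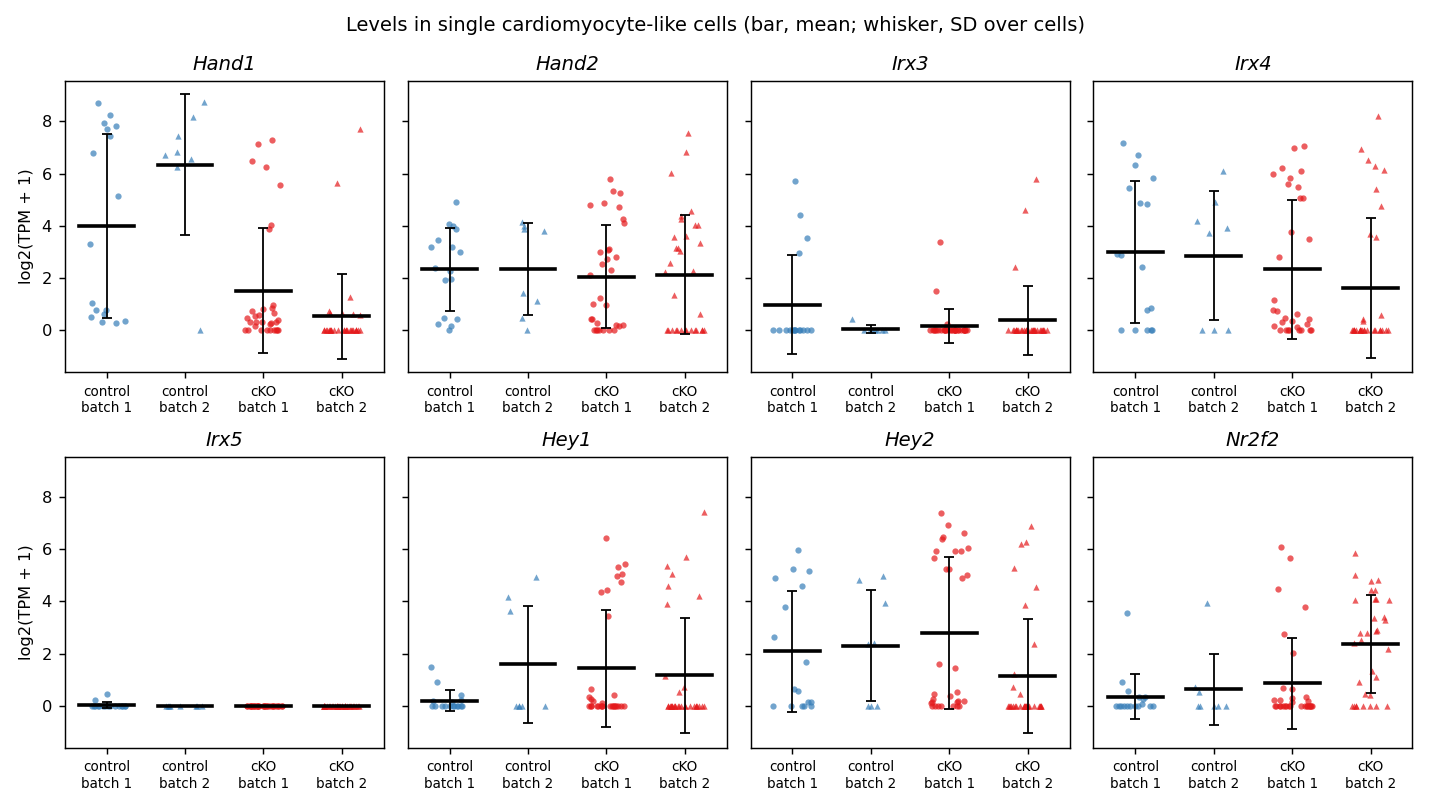
Level of each gene, as log2(TPM + 1), in every CM-like cell of control (17 and 8 cells) and cKO hearts (32 and 33 cells) by sequencing batch; each point is a cell, the bar the mean and the whisker the SD over cells. Hand1 is high in most batch 2 control cells, split in batch 1 control cells, and near 0 in most cKO cells of both batches. Hand2 overlaps throughout, and Nr2f2 is spread upwards in cKO cells, mainly in batch 2.

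Against all genes the Hand1 difference was extreme and those of most other members were not. Among 15004 genes above 0 in more than 10 CM-like cells, 7.48% were lower in cKO by at least 1 log2 unit with the same sign in both batches, and 5.97% were higher; such genes are said to have passed. Of the 8 members 7 were tabled there, 1 of them lower (Hand1) and 1 higher (Nr2f2) by this measure. These shares are given beside the members only for scale, as the same comparison chose them. Hand1 ranked 4 from the lowest of the 15004 differences, whose median was 0.03 (0.13 in batch 1 and -0.17 in batch 2), while the other 6 members lay between rank 1184 from the lowest (Irx4) and rank 696 from the highest (Nr2f2). Set against each other member, the Hand1 difference minus that of the other gene was between -2.73 log2 units (Irx4) and -4.89 (Nr2f2) pooled. The narrowest gap in a single batch was -1.65, to Irx3 in batch 1. With a floor at 0, no gene could fall by more than its control mean. For the other members the pooled control means ran from 0.03 (Irx5) to 2.95 (Irx4). None of them could therefore have reached -3.71 pooled, and the pooled gaps cannot tell whether Hand1 was affected more than they were. Irx3, Hey1 and Hey2 had opposite signs in the 2 batches, as had 42.8% of all genes.

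**Figure D2:**
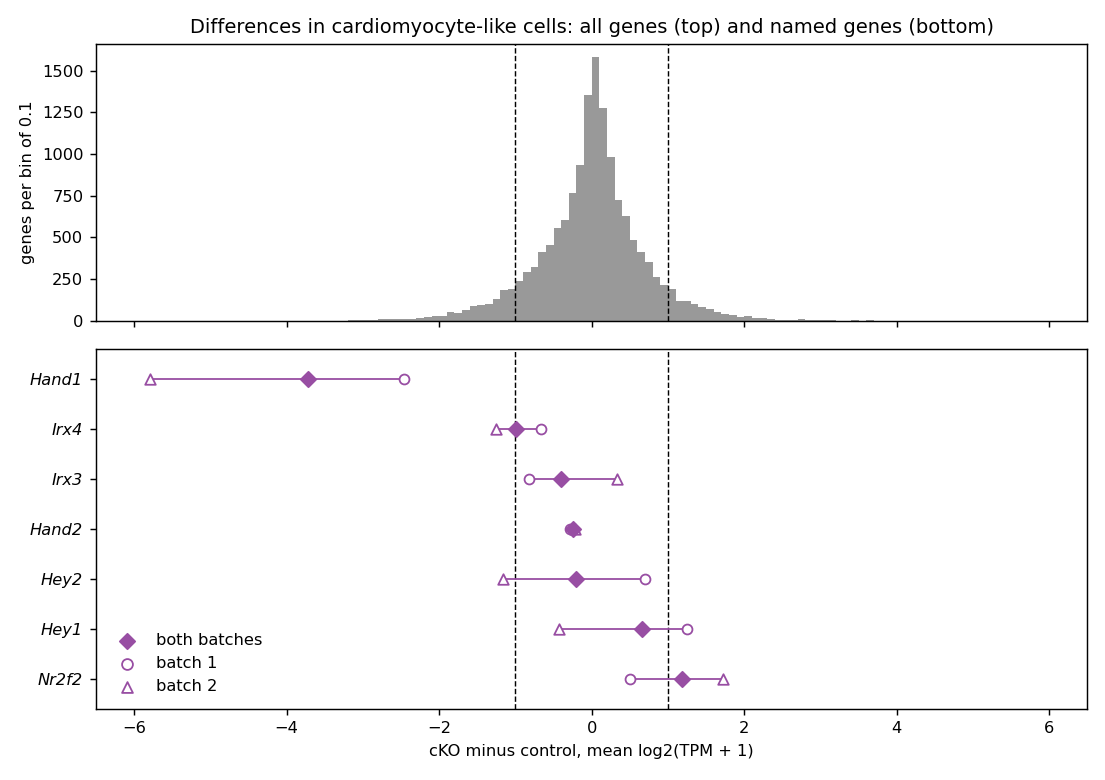
Top, the number of genes per bin of 0.1 log2 units of cKO minus control mean log2(TPM + 1) over 15004 genes in CM-like cells; bottom, the 7 tabled members on the same axis, with diamonds for both batches, circles for batch 1 and triangles for batch 2, and dashed lines at 1 log2 unit either way. Hand1 lies left of the line in both batches, Nr2f2 right of it pooled (1.18), and Irx4 just inside it (-0.99).

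Irx4, the ventricle-restricted Iroquois factor, was lower in cKO in both batches without reaching 1 log2 unit pooled. In batch 1 it ran from 0 through a median of 2.86 to 7.15 in control and from 0 through 0.68 to 7.06 in cKO cells. In batch 2 it ran from 0 through 3.82 to 6.10 and from 0 through 0 to 8.21. The ranges overlapped fully, and the medians were lower in cKO in each batch. The difference was -0.99 log2 units (2.95 ± 2.59 in control, 1.97 ± 2.68 in cKO; -0.66 and -1.25 by batch). Detection was 15 of 25 (38.7 to 78.9%) against 23 of 65 (23.9 to 48.2%). As with Hand2, the cells that detected Irx4 did not hold less of it in cKO, at 5.31 ± 1.62 against 4.81 ± 1.46. The mean difference therefore followed the share of cells with the transcript.

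The other Iroquois members were sparse in muscle. Irx3 was detected in 4 of 25 control cells, all of them in batch 1, and in 5 of 65 cKO cells, with a difference of -0.41 log2 units that was -0.82 in batch 1 and 0.33 in batch 2. With so few detecting cells no direction can be read. Irx5 was at a TPM of 1 in none of the 90 CM-like cells, and only 2 control cells were above 0. Taking 3 cells as the floor, 0 of 65 cKO cells allows a share at that level of up to 4.62% and 0 of 25 control cells up to 12%, and the exact intervals reach 5.52% and 13.7%. Cells that express Irx5 below that level are not limited by this. Of 3 further Iroquois genes, Irx1, Irx2 and Irx6, 2 were tabled and 0 differed by 1 log2 unit, with a median difference of 0.38. Crnde, a transcript that starts beside Irx5 and runs the other way, was detected in 7 control and 4 cKO cells and was lower by 1.06 log2 units (-1.55 and -0.09 by batch).

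The Hey genes, which repress transcription downstream of Notch, differed in opposite ways between batches. Hey2, the ventricular member, ran from 0 through a median of 1.68 to 5.99 in control cells and from 0 through 0.17 to 7.37 in cKO cells, and 9 cKO cells exceeded the highest control cell. Its pooled difference of -0.21 log2 units was made up of 0.70 in batch 1 and -1.17 in batch 2. It was detected in 13 of 25 control cells and 24 of 65 cKO cells, and detecting cKO cells held more (5.14 ± 1.78 against 4.04 ± 1.35), and the ratio of mean TPM was 1.77 in favour of cKO (1.44 without the 2 highest cKO cells). By batch, 8 of 17 control cells against 16 of 32 cKO cells held it in batch 1 and 5 of 8 against 8 of 33 in batch 2, so the smaller cKO share came from batch 2. Hey1 was detected in 4 of 25 control cells (1 of 17 and 3 of 8 by batch) and 17 of 65 cKO cells (9 of 32 and 8 of 33). Its difference was 0.66 log2 units, 1.24 in batch 1 and -0.43 in batch 2, and the 8 control cells of batch 2 decide that sign. Those are the cells of which 7 also carried markers of another class, and the part of those markers in the Hey1 value was not tested.

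Nr2f2, the atrial and venous factor, was the 1 member that passed as higher in cKO CM-like cells. In batch 1 taken alone Hey1 and not Nr2f2 reached 1 log2 unit. In control cells it ran from 0 through a median of 0 to 3.54 in batch 1 and from 0 through 0 to 3.94 in batch 2. In cKO cells it ran from 0 through 0 to 6.08 in batch 1 and from 0 through 2.79 to 5.84 in batch 2, and 13 cKO cells exceeded every control cell. The mean was 0.45 ± 1.03 in control and 1.63 ± 1.94 in cKO cells, a difference of 1.18 log2 units, 0.50 in batch 1 and 1.73 in batch 2. Nr2f2 transcripts reached detection in 2 of 25 control cells (8.00%, 0.98 to 26%) and 28 of 65 cKO cells (43.1%, 30.8 to 56%). Most of that came from batch 2, with 22 of 33 cKO cells against 1 of 8 control cells, whereas batch 1 had 6 of 32 against 1 of 17.

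Values that could move with Nr2f2 were set beside it. Summed TPM of the 14 mesenchymal markers had a median of 12.2 in control (0.04 to 134) and 25 in cKO CM-like cells (0.65 to 214), of the 6 epicardial markers 25.9 (0.31 to 533) and 34.8 (0 to 355), and of the 13 endothelial markers 8.33 (1.82 to 105) and 11.7 (2.97 to 208). By batch the epicardial sum had medians of 6.07 in control and 61.9 in cKO cells in batch 1, and of 40.8 and 28.9 in batch 2. The mesenchymal sum had medians of 4.13 and 15.1 in batch 1 and 19.9 and 29.2 in batch 2. At most 1 marker of each of these lists was detected in at least 50% of the cells of either genotype, and Postn was at 0 in all cKO cells. Within the 65 cKO cells the correlation of Nr2f2 with these sums, centred by batch, was 0.07, 0.03 and 0.06, and with the number of detected genes 0.20. In the 15 control and 19 cKO batch 1 cells in which every other class had a z-score below 0, the Nr2f2 difference was 0.19 log2 units, with 1 and 3 detecting cells. Batch 2 kept only 1 such control cell, at 0, against 8 of 13 cKO cells detecting Nr2f2. Hand1 differed by -2.65 log2 units in the same batch 1 cells, with 9 of 15 control and 3 of 19 cKO cells detecting it. An antisense transcript overlapping Nr2f2, B130024G19Rik, was detected in 2 control and 8 cKO cells, 4 of these 10 together with Nr2f2, and libraries of this kind do not separate the strands. The part of these markers in the Nr2f2 difference was not tested beyond these values.

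**Figure D3:**
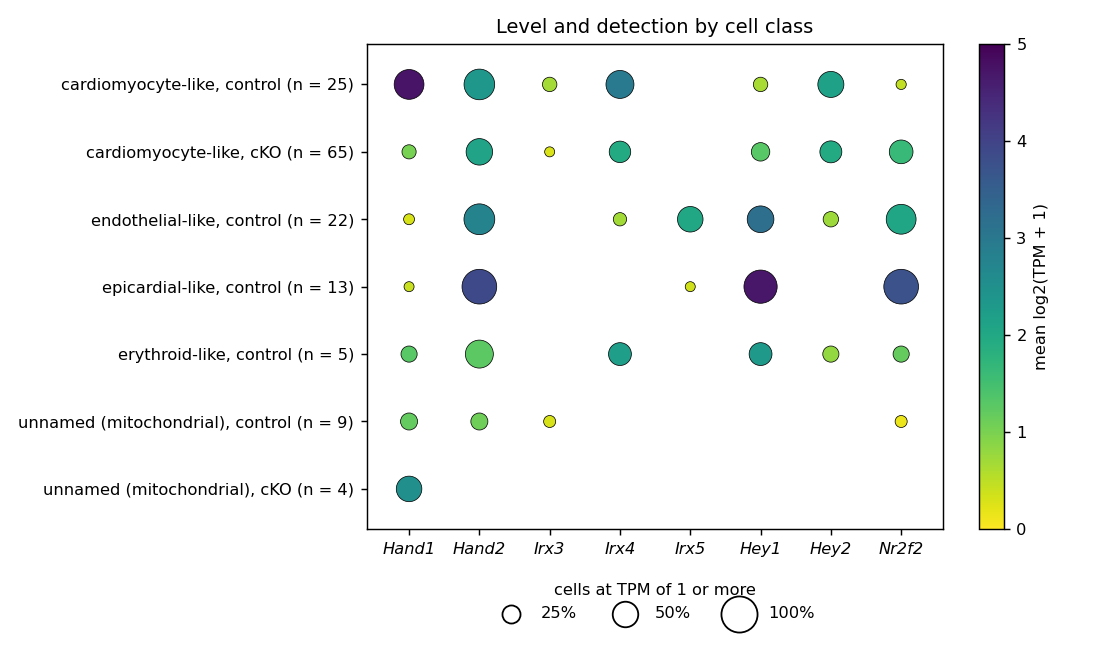
Mean log2(TPM + 1) (colour) and share of cells at a TPM of 1 or more (circle size) of the 8 genes in each cell class and genotype, with the number of cells beside each class; no circle means no cell at that level. Hand1, Irx4 and Hey2 centre on CM-like cells, Irx5 on endothelial-like cells, and Hey1 and Nr2f2 on epicardial-like and endothelial-like cells.

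Across the control classes the members fell into different patterns, although none of them was a clustering marker. Hand1 averaged 4.74 in CM-like cells and was detected in 2 of 22 endothelial-like and 1 of 13 epicardial-like cells. Irx4 was detected in 3 of 22 endothelial-like and 0 of 13 epicardial-like cells, and Hey2 in 4 and 0. These 3 genes were mainly muscle transcripts in control hearts. Hand2 was broad: its mean was highest in epicardial-like cells (3.90 ± 1.68, 12 of 13 detected), then endothelial-like (2.77 ± 1.87, 16 of 22), then CM-like cells (2.34 ± 1.60), and neighbours in this order lay within 1 SD of each other. Hey1 followed the order epicardial-like (4.69 ± 2.27, 11 of 13), endothelial-like (3.20 ± 2.74, 12 of 22) and CM-like (0.65 ± 1.41), of which the first pair lay within 1 SD. Irx5 was detected in 11 of 22 endothelial-like cells, 1 epicardial-like cell and no CM-like cell. Nr2f2 was detected in 12 of 13 epicardial-like cells (3.75 ± 1.70) and 15 of 22 endothelial-like cells (2.04 ± 1.71). Both the cKO CM-like mean of Nr2f2 (1.63 ± 1.94) and the control CM-like mean (0.45 ± 1.03) were within 1 endothelial-like SD of the endothelial-like mean. This measure therefore does not set the genotypes apart. The 5 erythroid-like cells gave scattered values, among them Irx4 in 2 and Hey1 in 2 cells. In the 13 unnamed cells, most of them rich in mitochondrial RNA, Irx4, Irx5, Hey1 and Hey2 were not detected. Hand1 was detected there in 2 of 9 control and 2 of 4 cKO cells.

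Nr2f2 and the ventricular factors were next counted together in single cells. Of 65 cKO CM-like cells, 3 had both Nr2f2 and Hey2, 25 had Nr2f2 without Hey2, 21 had Hey2 without Nr2f2 and 16 had neither. For Nr2f2 and Irx4 the counts were 5, 23, 18 and 19. Counting Irx4 and Hey2 as 1 set, 22 cells had Nr2f2 alone, 27 had Irx4 or Hey2 without Nr2f2, 6 had both kinds and 10 had none. The counts by batch were 6, 21, 0 and 5 cells in batch 1 and 16, 6, 6 and 5 in batch 2, so the batches differed in which side was larger. In batch 2 the 9 cKO cells with Irx4 included 5 with Nr2f2, and in batch 1 none of 14 did. Irx4 and Hey2 were found together in 14 cKO cells, 9 had Irx4 alone and 10 Hey2 alone. Both control cells with Nr2f2 also had Irx4 or Hey2, and 18 of the other 23 had Irx4 or Hey2.

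Correlations of log2(TPM + 1) across these 65 cKO cells, centred by batch, were also computed. The values of a cell share its library and depth, and the correlations are descriptions without a test. Pearson's r of Nr2f2 was -0.43 with Hey2 (-0.40 and -0.48 by batch) and -0.34 with Irx4 (-0.33 and -0.35), while Irx4 with Hey2 was 0.40 (0.42 and 0.37). Nr2f2 also ran opposite to Myl2, the ventricular myosin light chain, at -0.55 (-0.72 and -0.50), and to Pln, the inhibitor of the calcium pump SERCA, at -0.57 (-0.57 and -0.58). It ran with Vsnl1, a calcium sensor of atrial muscle, at 0.55 (0.64 and 0.50). Irx4 and Hey2 had the reverse signs, at 0.41 and 0.38 with Myl2 and -0.40 and -0.37 with Vsnl1. In cKO cells Hand1 gave 0.17 with Hand2, 0.26 with Irx4 (0.27 and 0.25 by batch), -0.13 with Hey2 and -0.08 with Nr2f2. With Myl2 and Pln it gave 0.08 and 0.03 there. Only 10 of these 65 cells detected Hand1, which limits what its correlations can show. Among the 25 control cells Hand1 instead ran opposite to Myl2, at -0.52 (-0.54 and -0.55 by batch), and to Pln, at -0.44 (-0.48 and -0.39). In the 25 control cells Nr2f2 gave 0.34 with Irx4, 0.15 with Hey2 and -0.21 with Myl2, but only 2 of them detected Nr2f2. Over all 90 CM-like cells, centred by genotype and batch, Nr2f2 gave -0.52 with Myl2, -0.53 with Pln and 0.52 with Vsnl1. Likeness was ranked only among 6767 genes detected in at least 50% of the CM-like cells of either genotype, which leaves out Vsnl1, and there no gene reached a positive r of 0.5 with any member.

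**Figure D4:**
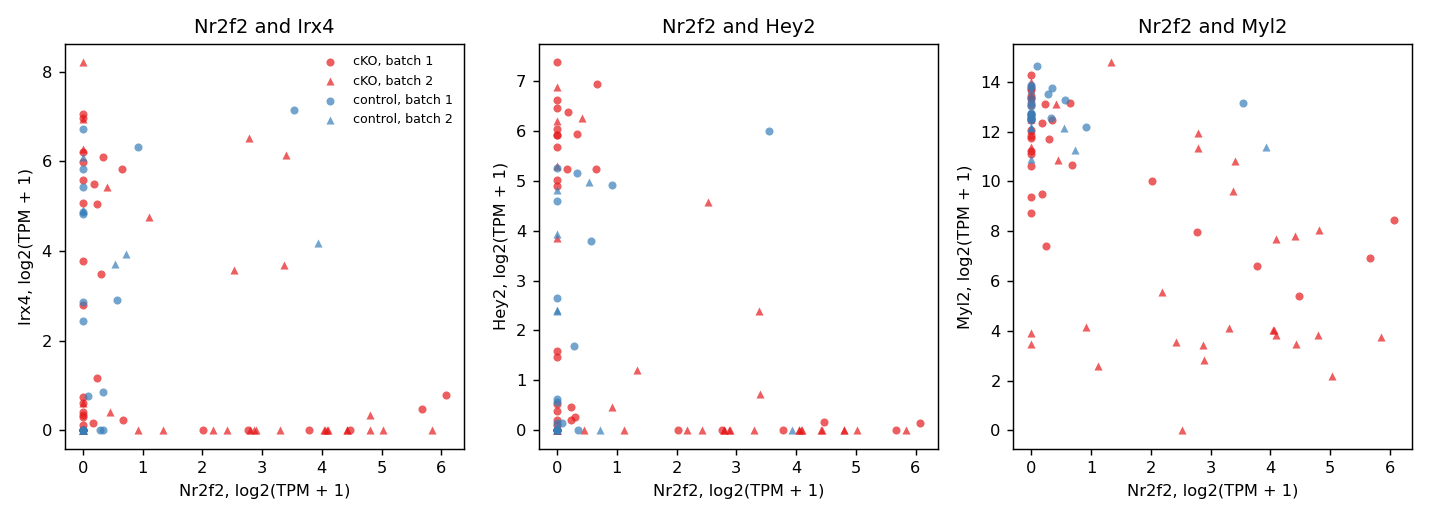
Nr2f2 against Irx4, Hey2 and Myl2 in the 90 CM-like cells, all as log2(TPM + 1); colour gives genotype (red cKO, blue control) and shape the batch (circle 1, triangle 2). Most cells high in Nr2f2 lie along the floor of the Irx4 and Hey2 panels, and their Myl2 reaches lower values than in control cells.

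Other chamber genes were then read on the same scale, from lists put together with earlier results of these cells in view. Of these, Myl3, Myh7, Smpx, Myh6, Myl4, Myl7 and Tbx18 were also clustering markers. Their differences, and the medians that include them, are not independent of how the CM-like cells were chosen. Among all genes 7.48% passed as lower and 5.97% as higher, and the counts below are to be read beside these shares. Of 12 ventricular chamber genes, 5 passed as lower, 1 as higher and 6 did not pass, with a median of -0.64 beside 0.03 for all genes. Lowest was Myl2, at -3.62 (-2.07 and -4.71 by batch, detected in all 25 control and 64 of 65 cKO cells). Cited1, a transcriptional coregulator of the ventricle, was at -3.35 and Pln at -3.22, and the Hand1 difference was about as large as these. Nppb, a natriuretic peptide gene, was higher by 2.01. Of 12 atrial and inflow genes 9 were tabled, 0 were lower, 2 were higher and the median was 0.67. These were Vsnl1, at 1.93 (0.63 and 3.19 by batch, 0 of 25 control and 28 of 65 cKO cells), and Stard10, at 1.06. Of 8 atrioventricular canal genes 7 were tabled, 1 was higher (Rspo3, a secreted enhancer of Wnt signalling, at 1.37) and the median was 0.28.

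**Figure D5:**
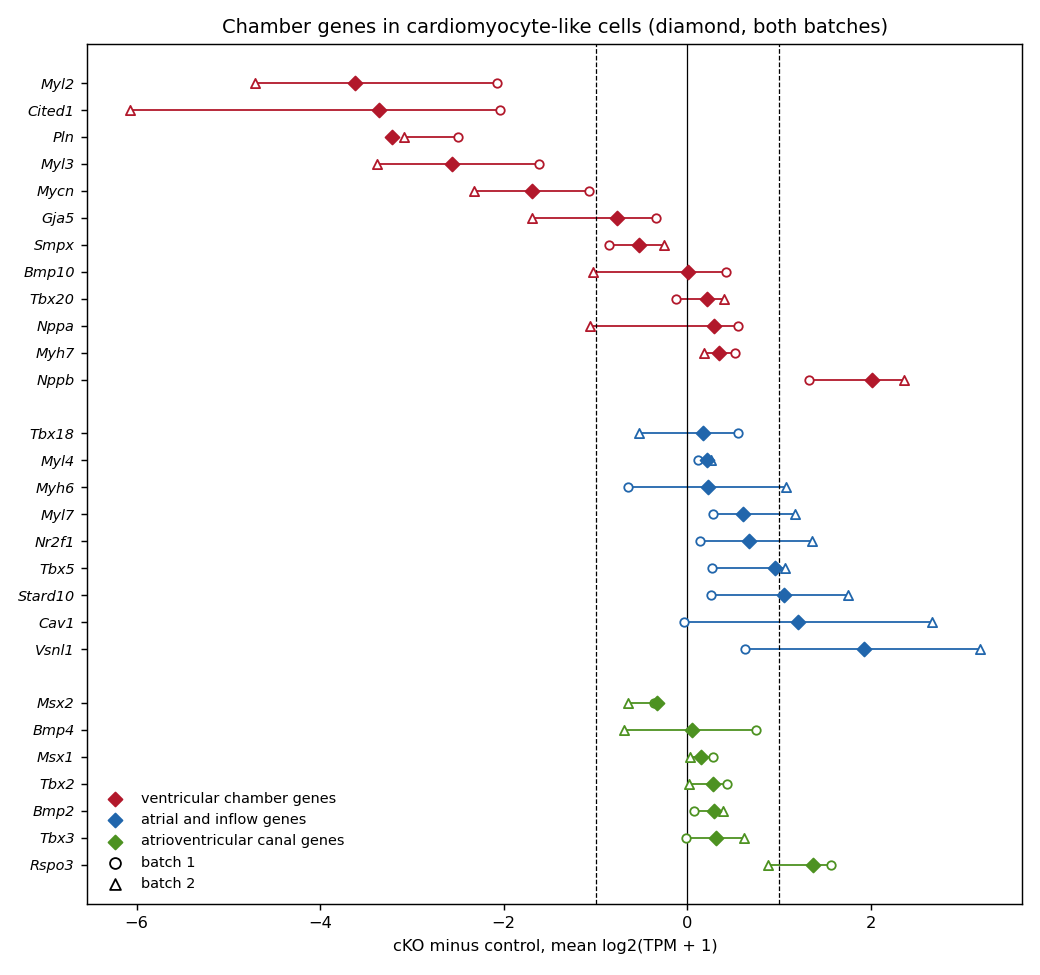
Difference between cKO and control CM-like cells, in mean log2(TPM + 1), for the tabled ventricular (red), atrial and inflow (blue) and atrioventricular canal genes (green); diamonds are both batches together, circles batch 1 and triangles batch 2, and dashed lines mark 1 log2 unit either way. The 5 ventricular genes that passed, led by Myl2 (-3.62), lie left of the lower line in both batches, and Nppb (2.01) and Vsnl1 (1.93) lie farthest right.

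Partners and related genes came in short lists, to be read against the 7.48% of all genes that passed as lower and the 5.97% as higher. Hand proteins pair with class I bHLH proteins and are held back by Id proteins. A list of 9 genes held such partners and inhibitors and, besides them, Twist1 and Twist2, which were not tabled. Of the 9 genes 7 were tabled and 0 differed by 1 log2 unit in either direction, with a median of -0.14. Of 13 genes of the Notch pathway and its other Hes and Hey targets, 9 were tabled, 0 were lower and 1 was higher, with a median of 0.35. That was Maml1, a coactivator of Notch-bound RBPJ, at 1.03 (1.54 and 0.31 by batch). Of 10 outflow tract and second heart field genes 8 were tabled and 0 passed in either direction, with a median of 0.39. The other COUP-TF genes, Nr2f1 and Nr2f6, were both tabled without passing, with a median of 0.41. Nr2f1 was at 0.67 (0.14 and 1.36 by batch) and was detected in 1 control and 21 cKO cells. Nr2f6 was at 0.15 (0.20 and 0.17 by batch), in 7 control and 21 cKO cells. Nr2f1 was also counted among the atrial and inflow genes. Of the antisense or divergent neighbours in the table, Irx3os was not detected in any CM-like cell and Crnde was the 1 that was lower.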

How the data were processed

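Single cells of E9.5 ventricles were picked by hand, amplified by Smart-seq2 (unstranded, no molecular identifiers) and sequenced in 2 batches. The authors deposited TPM made with Salmon against mm10 (versions and annotation not given in the sources used here), for cells with a high mapping rate and reporter expression that fits the genotype. TPM keeps no depth. Columns summed to 996133 to 999999. Of 170 labelled samples 143 had a column, no pair was identical, and 27 were not analysed here. No doublet caller was run on hand-picked cells.

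Cells were clustered (Ward, 5 clusters) on z-scored log2(TPM + 1) of 55 markers (15 CM, 13 endothelial, 14 mesenchymal, 6 epicardial, 7 erythroid), and a cluster was named from at least 3 markers that stood out. The naming thresholds were set after an earlier look at these data, and the class may differ from the authors' CM set. Differences are cKO minus control mean log2(TPM + 1), pseudocount 1, over genes above 0 in more than 10 CM-like cells. This understates changes of low genes. A gene passed at a pooled difference of at least 1 with the same sign in both batches. No test was made.

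The genes named are the 8 members, Dgcr8, from each list up to 3 genes per direction that passed with the largest differences, and genes with r of at least 0.5 to a member. Irx3os (antisense to Irx3), Hand2os1, Twist1, Twist2, Nr2f1, Nr2f6, Irx1, Irx2, Irx6, Postn, Xist, Ddx3y and B130024G19Rik are named outside that rule. So are the clustering markers Myl3, Myh7, Smpx, Myh6, Myl4, Myl7 and Tbx18. Members, lists and markers were chosen with earlier results of these data known. Gene positions and overlaps came from GENCODE (GRCm38) and start-site sequences from RefSeq. Python 3.11.15 with numpy 2.4.6, pandas 2.3.3, scipy 1.17.1, statsmodels 0.14.6 and matplotlib 3.10.9 was used, and the steps were tested on simulated data. Alternatives were other pseudocounts, clusterings, scalings, filters, cell sets and single batches. A set of CM-like cells without other-class markers, and ratios of mean TPM without the highest cells, were chosen after seeing the data.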

Additional observations from a re-analysis of the deposited data

How the results depend on the processing

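Hand1 stayed lower and Nr2f2 higher in cKO under all 14 alternatives, at -5.79 to -0.89 and 0.03 to 2.01 log2 units. Not all of these could differ: 6 clusters gave the same 25 control and 65 cKO CM-like cells. Single batches and their equal weighting could not reverse either gene, since passing required the same sign in both batches. Over the 8 members, 100 of 112 differences did not change sign, a count that includes Irx5 at 0 in batch 2 alone. Hand2 changed sign with a pseudocount of 10, with mean TPM and without other-class markers, and Hey2 in 5 alternatives. With all cells in place of CM-like cells, Hand1 came to -0.89 and Irx5 to -0.68, and 0 members passed in either direction. All non-muscle classes are control cells there. With a pseudocount of 0.1 Irx5 came to -0.15, with 2 cells above 0.

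Members that passed as lower numbered 2 (Hand1 and Irx4) with a pseudocount of 0.1, with 7000 to 11000 detected genes, with rescaled TPM and at a fold of 0.6, and 3 in batch 2 alone. Members that passed as higher numbered 0 with a pseudocount of 10 and 2 with mean TPM. Without other-class markers 16 control and 32 cKO cells remained, 0 members passed in either direction, and batch 2 rested on 1 control cell without Hand1, against which Hand1 was higher by 0.74.

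Of all genes, 2063 were lower and 1571 higher with a pseudocount of 0.1, 303 and 264 with 10, 721 and 2137 with mean TPM, and 347 and 1814 with 4 clusters (median of all genes 0.17 in each of the last 2). The marker z-score rule gave 716 lower, batch 2 alone 3131 lower, batch 1 alone 1721 higher, and cells without other-class markers 354 and 1615. The cause of these shifts was not tested. No paired analysis was possible because no labelled replicate links control and cKO cells. TPM keeps no depth, so undetected does not mean absent.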
